A study of Mus musculus with 8 samples.

Results

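The machinery of glycinergic inhibition was examined in whole-brain bulk RNA-seq through 6 genes: the glycine receptor subunit genes Glra1, Glra2, Glra3 and Glrb, the glycine transporter gene Slc6a9 and the gephyrin gene Gphn. They were chosen by name, by their symbol in the deposited table, and all 6 were found among its 24343 genes and were above 0 in every library. The whole brain of each of 3 C57BL/6NCrl mice, aged 56–62 days, was sequenced, with no treatment or genotype compared. Mice 1 and 2 gave 3 libraries each, and mouse 3 gave 2. What separates the libraries of a mouse was not stated, and no sex is given for any of the mice in the labels. Levels are in FPKM, the fragments sequenced from a transcript scaled to its length and to the size of the library. Levels of different genes can thus be compared, as far as the listed transcripts cover each gene. The FPKM values of the transcripts of a gene were summed, averaged within each mouse and then over mice, and each SD is between mice (n = 3).

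Glycine receptors are chloride channels built from alpha subunits, which bind glycine, and the beta subunit encoded by Glrb, which is held at the synapse by gephyrin. Glycine is the main fast inhibitory transmitter of the spinal cord and brainstem, where the subunit encoded by Glra1 predominates in adults, whereas Glra2 is best known from the developing brain and forebrain. Slc6a9 encodes GlyT1, a transporter that clears glycine from the extracellular space and is expressed mainly by astrocytes. Gephyrin is a scaffold of both glycinergic and GABAergic synapses, and also catalyses the last steps of molybdenum cofactor synthesis.

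Neuronal, cerebellar, cortical, astrocyte and oligodendrocyte markers were all above 1 FPKM, whereas 4 of 7 hindbrain and 4 of 5 pituitary markers were below it. Libraries held 1.31 to 2.02 gigabases on transcripts. Both libraries of mouse 3 stood apart from those of the other mice. By limma, as described below, all 5 astrocyte markers were higher in mouse 3, where 14.1% of all genes tested were. With TPM, 1 of the 5 was, where 42.3% of all genes differed in either direction. The median difference of the 5 from the mean of mice 1 and 2 was 0.52 on the log2 scale with FPKM, beside 0.02 over all genes. With TPM it was 0.22, beside −0.26 over all genes. Without library 2 of mouse 3 the median was 0.53, beside 0.022 over all genes. Not all of the 5 calls held there, with 1 library left for mouse 3. Their summed level was 523 and 559 FPKM in mouse 3 against 346 to 368 FPKM in the other libraries. The oligodendrocyte markers Mbp, Mog and Mag summed to 2966 and 3634 FPKM in mouse 3 against 1341 to 1474 FPKM, mostly through Mbp, with 3166 FPKM in mouse 3 against 1288 and 1322 FPKM. Of these 3 markers, 1 was higher in mouse 3 by limma (Mbp), with FPKM, where 14.1% of all genes were higher. Mbp was also higher with TPM, where 42.3% of all genes differed in either direction. The neuronal markers summed to 1308 and 1465 FPKM against 1522 to 1643 FPKM. In bulk samples, fewer cells of a type and less RNA per cell cannot be told apart. The libraries of mouse 3 also held relatively more of the short transcripts. Over all genes tested, Spearman's rho of transcript length with how far a library lay from the mean of the libraries was −0.363 and −0.574 in mouse 3 and between 0.182 and 0.502 in the others.

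Glra1 and Gphn each had a pair of transcripts in the table that share a start site and differ in coding exons, and those sequences are shown because a library's transcript values turn on reads that cross them. The Glra1 transcripts NM_001290821 and NM_020492 differ by 24 bases at the start of the last exon, exon 9, at chr11:55515104-55515127 on the minus strand (GRCm38). These bases are coding bases 1060 to 1083 of the longer form, 8 codons that lengthen the intracellular loop of the subunit. They are in capitals in the first sequence, with 18 flanking coding bases in lower case on each side, and the second sequence is the join in the shorter form.
Glra1 NM_001290821: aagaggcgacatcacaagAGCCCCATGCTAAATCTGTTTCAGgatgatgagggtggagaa
Glra1 NM_020492: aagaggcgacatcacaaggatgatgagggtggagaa
The Gphn transcripts differ at 2 places of the coding sequence. NM_145965 alone holds exon 8, of 108 bases (36 codons), at chr12:78493950-78494057 on the plus strand, an exon known to be left out of most neuronal gephyrin and kept in liver and glia. NM_172952 alone holds its exons 9 and 10, of 57 and 42 bases, at chr12:78522898-78522954 and chr12:78532657-78532698. The exons held by a single form are in capitals, and sequences are from GENCODE M21 (GRCm38).
Gphn NM_145965: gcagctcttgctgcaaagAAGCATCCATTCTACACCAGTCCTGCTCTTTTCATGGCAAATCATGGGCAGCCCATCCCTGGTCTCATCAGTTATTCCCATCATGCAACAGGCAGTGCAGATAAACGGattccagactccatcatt
Gphn NM_172952: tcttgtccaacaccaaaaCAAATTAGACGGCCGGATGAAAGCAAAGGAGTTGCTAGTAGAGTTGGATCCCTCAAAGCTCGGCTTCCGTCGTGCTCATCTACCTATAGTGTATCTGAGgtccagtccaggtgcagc

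The beta subunit gene was by far the highest of the 6 in level, and the alpha subunit genes were the lowest. Glrb (chromosome 3, from 80843599 to 80913660) had 78.4 ± 7.38 FPKM, above 96.1% of the 19296 genes detected in any library. Slc6a9 (chromosome 4, from 117835258 to 117869305) followed with 22.9 ± 3.15 FPKM and Gphn (chromosome 12, from 78226655 to 78684769) with 21.5 ± 2.85 FPKM. Among the alpha subunit genes, Glra2 (chromosome X, from 165129017 to 165326981) had 7.004 ± 1.69 FPKM, Glra1 (chromosome 11, from 55514239 to 55608198) 5.25 ± 0.672 FPKM and Glra3 (chromosome 8, from 55940825 to 56125352) 3.27 ± 0.658 FPKM. The positions, on mm10 and counted from 1, are the authors', and all 6 are annotated by RefSeq as protein-coding. RefSeq places the end of Glra3 further on, at 56130070, and that of Glra2 at 165327867. The only Glra3 transcript given is 1474 bases long. The part of such limits in the levels was not tested.

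The order of levels held in every library except for the neighbours Slc6a9 and Gphn and the neighbours Glra2 and Glra1. Glrb was above Slc6a9 in 8 of 8 libraries, by 2.86-fold to 3.69-fold, and Gphn was above Glra2 in 8 of 8 libraries, by 1.69-fold to 4.40-fold. Slc6a9 and Gphn did not differ beyond their spread, since Slc6a9 was the higher in 2 of 8 libraries, those of mouse 3. Glra2 and Glra1 did not either, with Glra2 the higher in 4 of 8 libraries and a ratio from 0.972 to 2.63. Glra2 was above Glra3 in 8 of 8 libraries, by 1.63-fold to 3.58-fold, and Glra1 was above Glra3 in 8 of 8, but in library 2 of mouse 3 only by 1.01-fold. With 3 mice, a two-sided exact sign-flip permutation test of such a ratio cannot give a p below 0.25, so these comparisons are given as counts.

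**Figure D1:**
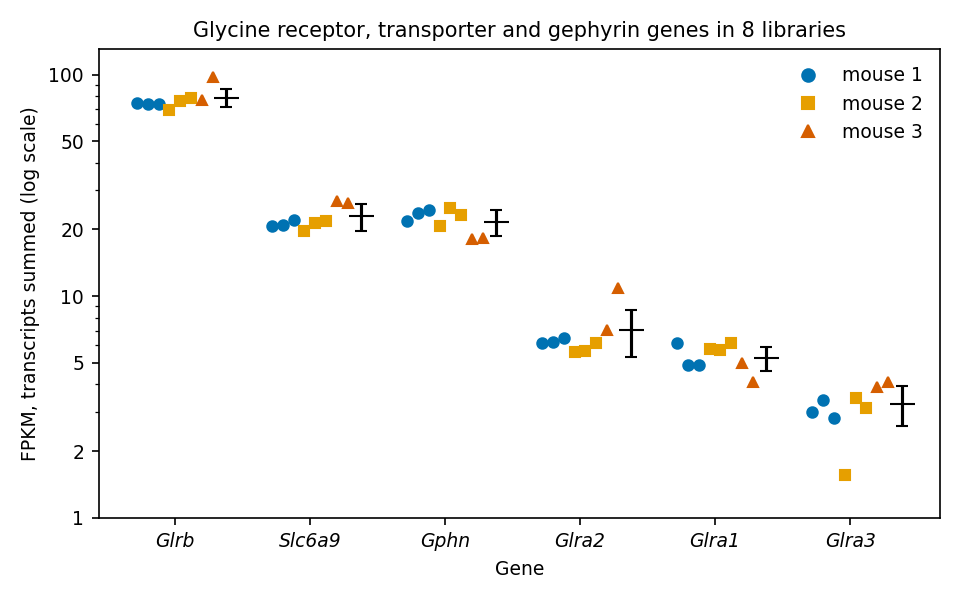
FPKM of each gene (y axis, log scale, transcripts summed) in the 8 libraries, ordered by mean level along the x axis; points are libraries, with colour and shape marking the mouse, and the black mark with its bar is the mean of the 3 mice ± SD. Glrb lies between 69.1 and 97.3 FPKM, Slc6a9 and Gphn between 18.2 and 26.8 FPKM, and the alpha subunit genes between 1.56 and 10.8 FPKM.

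The values by library, in the order of the library numbers, show where each gene varied. Glra1, the adult brainstem and spinal cord subunit, had 6.15, 4.91 and 4.91 FPKM in mouse 1, 5.75, 5.74 and 6.16 FPKM in mouse 2 and 4.98 and 4.11 FPKM in mouse 3. Glra2 had 6.13, 6.24 and 6.47 FPKM in mouse 1, 5.59, 5.67 and 6.14 FPKM in mouse 2 and 7.03 and 10.8 FPKM in mouse 3. Glra1 of mouse 3 overlapped the others, whereas both values of Glra2 in mouse 3 lay above the 6 others and differed from each other by more than any pair of the others did. Glra3 had 3.02, 3.42 and 2.81 FPKM in mouse 1, 1.56, 3.47 and 3.12 FPKM in mouse 2 and 3.90 and 4.09 FPKM in mouse 3. Glra3 is a subunit best known from pain circuits of the dorsal horn, and its lowest value, in library 1 of mouse 2, had deposited confidence bounds of 0.897 and 2.23 FPKM that still overlapped those of 2 of the 5 other libraries of mice 1 and 2.

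Glrb had 74.5, 73.8 and 73.5 FPKM in mouse 1, 69.1, 75.6 and 78.3 FPKM in mouse 2 and 76.6 and 97.3 FPKM in mouse 3. A single library, library 2 of mouse 3, was thus high, and the other library of mouse 3 lay within the range of mice 1 and 2. Gphn had 21.9, 23.7 and 24.5 FPKM in mouse 1, 20.7, 24.9 and 23.2 FPKM in mouse 2 and 18.2 and 18.3 FPKM in mouse 3. Slc6a9 had 20.7, 20.9 and 22.0 FPKM in mouse 1, 19.7, 21.4 and 21.9 FPKM in mouse 2 and 26.8 and 26.3 FPKM in mouse 3. In these last 2 genes the libraries of mouse 3 were close to each other and outside the range of the others, below it for Gphn and above it for Slc6a9. The coefficient of variation between mice was 9.42% for Glrb, from 12.8% to 13.8% for Glra1, Gphn and Slc6a9, 20.1% for Glra3 and 24.1% for Glra2, against a median of 12.35% over the 13001 genes tested below, those whose mean reached 1 FPKM.

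Relative to the beta subunit, the alpha subunit genes kept a near-constant summed level. Summed alpha FPKM was 15.5 ± 1.70, and its ratio to Glrb was 0.198 ± 0.00411, from 0.187 to 0.208 over the 8 libraries. Put the other way, Glrb was 5.06 ± 0.105 times the alpha sum. Within the sum, Glra2 made up 44.6 ± 5.30%, Glra1 34.5 ± 7.42% and Glra3 20.9 ± 2.22%. The shares of Glra1 and Glra2 were close in mice 1 and 2, with 36.2% and 41.0% for Glra1 and 42.8% and 40.4% for Glra2, and parted in mouse 3, with 26.4% and 50.6%. This rested mostly on library 2 of mouse 3, where Glra1 had 21.6% and Glra2 56.9%, against 31.3% and 44.2% in library 1 of the same mouse. The share of Glra3 ranged from 12.1% to 24.5%. Gphn was 0.279 ± 0.0576 of Glrb, with 0.237 and 0.188 in the libraries of mouse 3 and between 0.294 and 0.333 in the others.

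**Figure D2:**
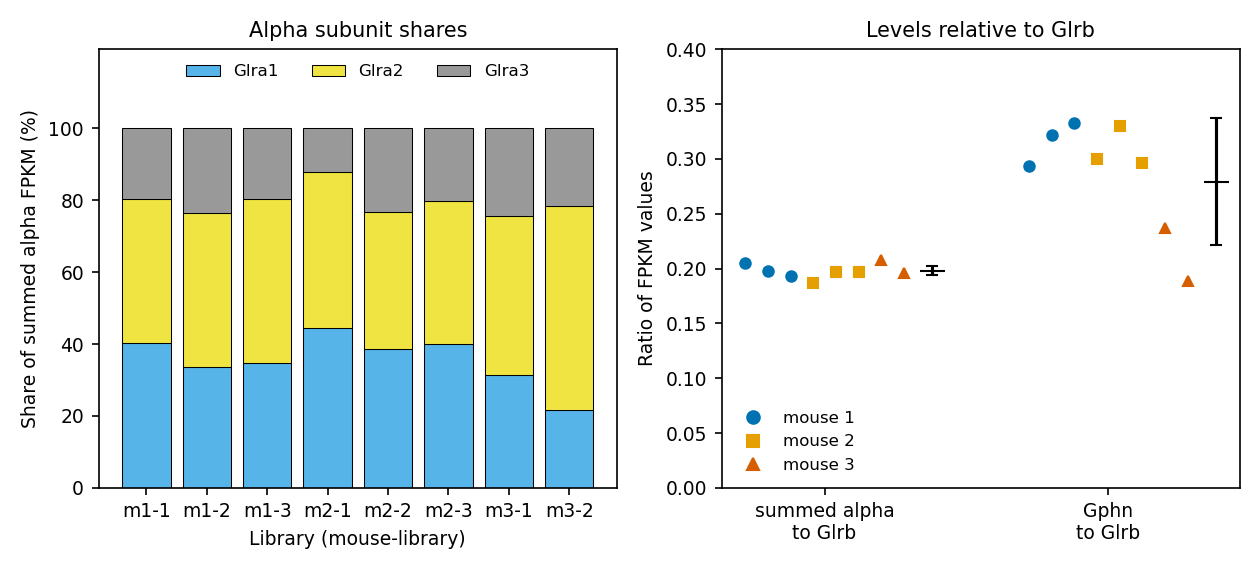
Left, share of Glra1, Glra2 and Glra3 in their summed FPKM (y axis, percent) in each library (x axis, m1-1 is library 1 of mouse 1). Right, ratio of summed alpha FPKM and of Gphn FPKM to Glrb (y axis) by library, with the mean of the 3 mice ± SD in black; the alpha ratio stays between 0.187 and 0.208, and the ratio of Gphn falls to 0.237 and 0.188 in mouse 3.

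The transcript values of Glra1 were far less steady than their sum. The longer form NM_001290821, with the 24 bases shown above, had 4.18, 0.782 and 2.38 FPKM in mouse 1, 1.90, 3.53 and 1.03 FPKM in mouse 2 and 1.93 and 0.404 FPKM in mouse 3. Its share of Glra1 went from 15.9% to 68.0% among the libraries of mouse 1 alone, and from 9.83% to 68.0% over all 8 libraries, with a mean of 35.2 ± 10.1%. Over the libraries, the coefficient of variation was 65.5% for the longer form, 32.4% for NM_020492 and 13.5% for their sum. The deposited confidence bounds of the forms did not overlap in 5 libraries, the longer form being higher in 1 of them and the shorter in 4. In mouse 1, the longer form was the higher in library 1 and the shorter in library 2, in both with bounds apart. In mouse 2, the longer form was the higher in library 2, where the bounds overlapped, and in mouse 3 the shorter form was the higher in both libraries. No difference between mice in the use of the 24 bases could be read from these values.

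The forms of Gphn were near-equal in mean level, with 10.8 ± 0.533 FPKM for NM_145965 and 10.7 ± 2.58 FPKM for NM_172952. Their deposited confidence bounds did not overlap in 5 of 8 libraries, NM_145965 being higher in 3 of them and NM_172952 in 2. In mouse 2, with bounds apart, NM_172952 was the higher in libraries 1 and 3 and NM_145965 in library 2. The division between the forms was thus unsteady within a mouse. NM_145965, with the exon of 108 bases, had 10.6, 11.9 and 11.9 FPKM in mouse 1, 8.36, 14.0 and 9.16 FPKM in mouse 2 and 10.4 and 10.6 FPKM in mouse 3. NM_172952 had 11.3, 11.9 and 12.6 FPKM in mouse 1, 12.4, 10.9 and 14.1 FPKM in mouse 2 and 7.78 and 7.69 FPKM in mouse 3. Mouse 3 was thus within the range of the others for NM_145965 and below it for NM_172952. The lower summed level of Gphn in mouse 3 therefore lay in the value given to the second form. Only these 2 forms of Gphn are in the table, so a form with neither or both of the differing stretches could not be told apart here. The share of NM_145965 was 57.2% and 58.0% in mouse 3 and between 39.4% and 56.2% in the others, a gap narrower than the spread within mouse 2. This division was not tested, and astrocyte markers were higher in mouse 3 as given above; their part in it was not tested.

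**Figure D3:**
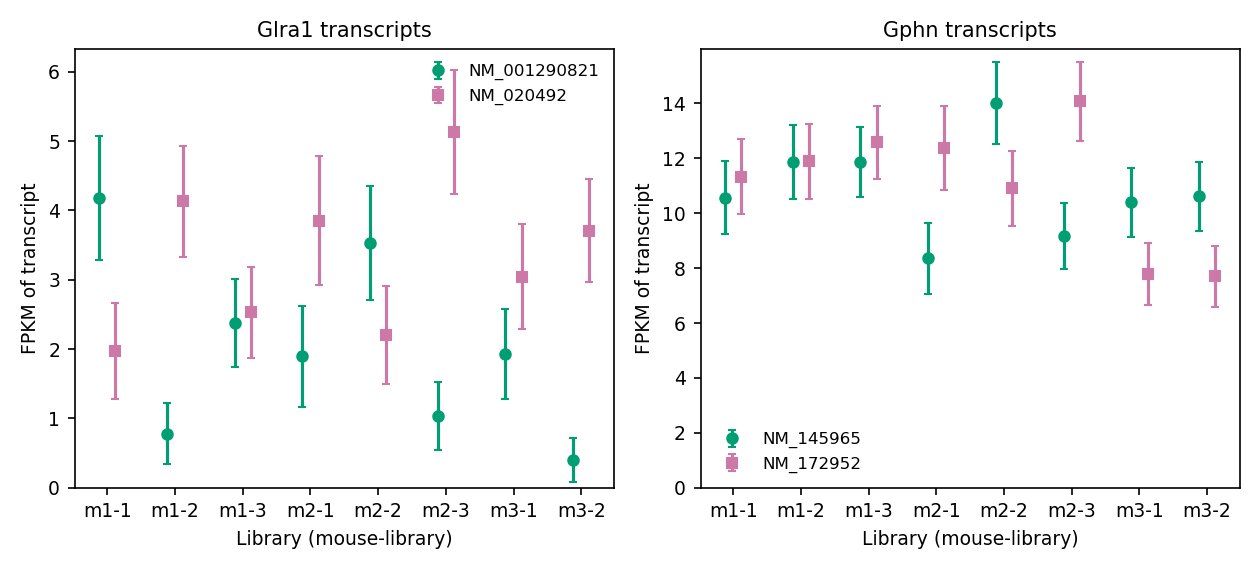
FPKM of the transcripts of Glra1 (left) and Gphn (right) on the y axis in each library (x axis, m1-1 is library 1 of mouse 1), with the deposited lower and upper confidence bounds as bars. The Glra1 forms change places between libraries of mouse 1 and of mouse 2 but not of mouse 3, and NM_172952 of Gphn is lowest in the libraries of mouse 3, at 7.78 and 7.69 FPKM.

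Nearly all Glrb signal came from a single form. NM_010298 made up 96.2 ± 0.441% of Glrb, and NM_001281969, which the table gives another start site, 3.78 ± 0.441%, from 2.27% to 6.22% over the libraries. The bounds of the Glrb forms did not overlap in any library. Glra2, Glra3 and Slc6a9 had 1 transcript each in the table, so that forms from alternative exons or promoters of these genes could not be told apart here. The locus of Slc6a9 overlaps that of Ccdc24, which had 0.540 FPKM.

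To ask how far the 6 genes differed between individual brains, log2(FPKM + 1) values were compared between the mice by the moderated F-test of limma with Benjamini-Hochberg adjustment. The libraries of a mouse served as its replicates, so p-values measure the spread between libraries, which may be technical, and describe these 3 mice only. Of the 6 genes, 1 differed between the mice, Slc6a9, where 25.5% of the 13001 genes tested did, a share the count of 1 in 6 does not stand out from. Slc6a9 was higher in mouse 3 by 0.32 ± 0.073 on the log2 scale against the mean of mice 1 and 2 (SE, limma, adjusted p 0.0338), and both libraries of mouse 3 were above the 6 others. Its mean was 26.6 FPKM in mouse 3 against 21.2 and 21.0 FPKM.

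The 5 other genes did not pass the test. For Gphn, mouse 3 minus the mean of mice 1 and 2 was −0.33 ± 0.087 on the log2 scale (SE, limma, adjusted p 0.0573), and for Glra2 it was 0.47 ± 0.131 (limma, adjusted p 0.0601). The difference was −0.25 ± 0.102 for Glra1 (limma, adjusted p 0.145), 0.38 ± 0.188 for Glra3 (limma, adjusted p 0.253) and 0.22 ± 0.10 for Glrb (limma, adjusted p 0.261). The 6 genes went both ways, and their median was 0.27, beside 0.02 over all genes tested. It was 0.12 without library 2 of mouse 3 (0.022 over all genes) and −0.023 with TPM (−0.26 over all genes). The libraries of mouse 3 did not overlap the others in 4 of the 6 genes, where 48.3% of all genes tested showed this. They lay above the others in 3 (Glra2, Glra3 and Slc6a9; 26.5% of all genes) and below them in 1 (Gphn; 21.7% of all genes). With TPM, Glra2, Glra3 and Slc6a9 overlapped, and Glra1 and Gphn lay below. With the trend with transcript length removed, Glra3 overlapped, Glra2 and Slc6a9 stayed above and Gphn stayed below. Mice 1 and 2 were close, with differences between them from −0.17 to 0.13 on the log2 scale.

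The calls depended on the scaling. With every library scaled to the same total (TPM), the median gene was lower in mouse 3 by 0.26 on the log2 scale, Slc6a9 did not differ (0.033, limma, adjusted p 0.942), and Gphn (−0.63, limma, adjusted p 0.00442) and Glra1 (−0.56, limma, adjusted p 0.0199) were lower in mouse 3, where 42.3% of all genes differed. Glrb changed sign to −0.079 there (limma, adjusted p 0.758). Relative to the median gene, Slc6a9 was higher in mouse 3 by 0.30 with FPKM and 0.29 with TPM, and Gphn lower, with −0.35 and −0.37. With the trend with transcript length removed, Slc6a9 and Gphn differed, 2 of the 6 genes, where 20.2% of all genes did, and with a minimum mean of 5 FPKM, Glra2, Gphn and Slc6a9 differed, where 36.8% did. The call of Slc6a9 was lost without any single library of mouse 1 or mouse 3 and without library 2 of mouse 2. Without library 2 of mouse 3, 0 of the 6 genes and 0.969% of all genes differed, with the values of Slc6a9 (0.33, limma, adjusted p 0.135) and Gphn (−0.33, limma, adjusted p 0.222) almost as before and that of Glra2 down to 0.19 (limma, adjusted p 0.226).

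**Figure D4:**
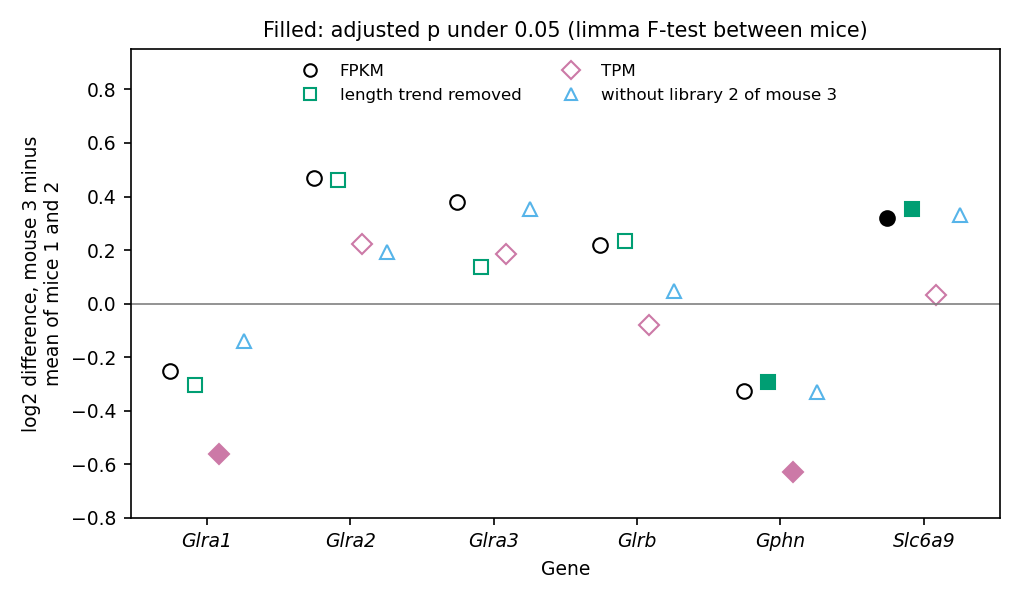
Difference of mouse 3 from the mean of mice 1 and 2 on the log2 scale (y axis) for each gene (x axis) with FPKM, with the trend with transcript length removed, with TPM and without library 2 of mouse 3; filled symbols have an adjusted p under 0.05 in limma's F-test between mice. Slc6a9 is filled with FPKM (0.32) and with the trend removed (0.35), and Gphn with the trend removed (−0.29) and with TPM (−0.63).

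Other genes of glycine handling and of the inhibitory synapse place these levels. Of a list of 19 genes, 18 were found in the table and 16 were tested, of which 7 differed between the mice (25.5% of all genes did), 5 of them higher in mouse 3 than the mean of mice 1 and 2 (14.1% of all genes) and 2 lower (11.3%). Those higher in mouse 3 were Slc7a10, an amino acid exchanger of astrocytes and neurons, Iqsec3, a partner of gephyrin, and Gldc, Amt and Gcsh, which encode parts of the mitochondrial glycine cleavage system. Gcsh had 59.6 FPKM in mouse 3 against 32.9 and 31.5 FPKM (0.86 ± 0.113 on the log2 scale, limma, adjusted p 0.00784), Amt 16.7 FPKM against 11.1 and 9.89 FPKM, and Gldc 8.71 FPKM against 6.71 and 6.47 FPKM. With the trend with transcript length removed, Gcsh was higher by 0.56 (limma, adjusted p 0.00829), and Amt (0.33, limma, adjusted p 0.0866) and Slc7a10 (0.24, limma, adjusted p 0.0868) no longer passed. Dld, which that system shares with other enzyme complexes, had 58.6 FPKM against 59.3 and 58.9 FPKM (limma, adjusted p 0.988).

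Nlgn2, which encodes neuroligin 2, an adhesion protein of inhibitory synapses that binds gephyrin, was lower in mouse 3, with 27.3 FPKM against 39.9 and 36.9 FPKM (−0.48 ± 0.10 on the log2 scale, limma, adjusted p 0.0234). Mocs3, of molybdenum cofactor synthesis, was also called, but there it was mouse 1, at 4.02 FPKM, that stood above mice 2 and 3, at 2.74 and 2.78 FPKM. With TPM, 2 of the 16 genes were higher in mouse 3 (Amt and Gcsh) and 8 lower, where 42.3% of all genes differed, and without library 2 of mouse 3, 0 differed, where 0.969% of all genes did. With FPKM and all 8 libraries, all 5 genes of the astrocyte list were higher in mouse 3, where 14.1% of all genes were. They moved in the same direction as Slc6a9, Slc7a10, Iqsec3, Gldc, Amt and Gcsh. Iqsec3, a partner of gephyrin, thus moved against Nlgn2, which also binds gephyrin. Of the neuronal list, 2 of 4 genes were lower, in the direction of Nlgn2, where 11.3% of all genes were lower. The part of these lists in the differences was not tested.

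Slc6a5, which encodes GlyT2, the transporter of glycinergic neurons themselves, had 3.59 ± 0.302 FPKM, and Slc6a9 was 6.56 ± 1.47 times as high, from 4.92 to 9.54 times over the libraries. Glra4, a further alpha subunit gene, had 0.147 ± 0.0789 FPKM and at most 0.372 FPKM in any library. The GABA-A receptor alpha subunit genes Gabra2, Gabra3, Gabra4, Gabra5 and Gabra6 were compared as genes of the other main inhibitory receptor. The lowest of these 5, Gabra5 with 19.99 ± 0.932 FPKM, was above Glra2 in every library, and the highest, Gabra2 with 37.4 ± 2.57 FPKM, was below Glrb. By limma, 0 of these 5 genes differed between mice, with 0 at an unadjusted p under 0.05, where 25.5% of all genes differed. With TPM it was 1 (lower in mouse 3), where 42.3% of all genes differed, and without library 1 of mouse 3 it was 1 (higher), where 29.2% did.

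**Figure D5:**
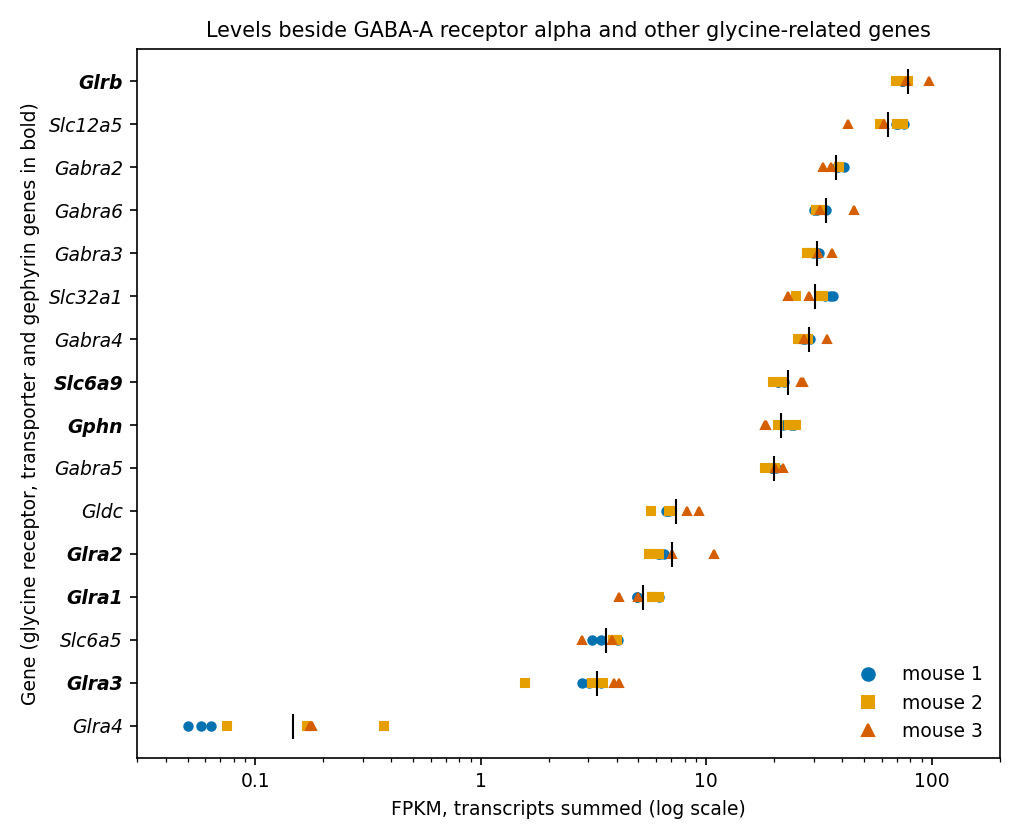
FPKM (x axis, log scale, transcripts summed) of the 6 genes, in bold, beside 5 GABA-A receptor alpha subunit genes and other genes of glycine handling and inhibition (y axis, ordered by mean), with a point for each library and a black line at the mean of the 3 mice. Glrb has the highest mean of the genes plotted, and Glra1, Glra2 and Glra3 lie below the 5 GABA-A alpha subunit genes shown.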

How the data were processed

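RNA of 3 whole mouse brains (8 libraries, Kapa mRNA HyperPrep, NextSeq500) was sequenced by the authors. The authors deposited FPKM with lower and upper bounds for each of 34535 RefSeq transcripts and library, and the read coverage per base, a signal not scaled for library size. Per the labels' processing notes, TopHat and Cufflinks were used with mm10; versions and the strand setting are not given in the sources used here. Transcript length, a further deposited column, is in bases. Read counts were not used here, so no counting interval was computed. None of the 8 values of status FAIL belonged to these genes. Libraries were grouped by the mouse named in the labels. Transcript values were summed per gene, averaged per mouse and then over mice. Mice were compared with limma 3.58.1 (R 4.3.3), moderated F-test on log2(FPKM + 1), genes whose mean reached 1 FPKM, adjusted p under 0.05. Coverage was used only for gigabases read. The test was also run on simulated data with independent noise for each gene. Those data lack the trends with transcript length of these libraries, so they do not show how the test behaves under them. The trend with transcript length was removed by lowess (statsmodels 0.14.6, span 0.3). The genes, lists and tests were chosen with earlier results of these data known. Named genes were the 6 genes, a list of 19, Gabra2 to Gabra6, markers and, for each of the 6, the gene of most similar profile. Some genes of the original lists are not reported here. Of the list, Insyn1 was not found by symbol. Blood and choroid plexus markers summed to 530 to 897 and 322 to 566 FPKM, hindbrain markers to 6.02 to 8.94 FPKM, cerebellar markers to 265 to 405 FPKM, cortical and hippocampal markers to 239 to 319 FPKM and pituitary markers to 2.12 to 3.17 FPKM.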

Additional observations from a re-analysis of the deposited data

Results flagged for a closer look

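Each of 21 measures of these genes was screened over the 8 libraries for a single library apart from the others. The gap used is one that chance gives in about 1 in 20 groups of 8 independent values. The 8 libraries come from 3 mice, and those of mouse 3 stood apart, so that rate does not hold for them. In 7 measures a library stood apart, and these share genes and libraries. In library 2 of mouse 3, Glra2 had 10.8 FPKM (next highest 7.03), with deposited bounds of 9.74 and 11.9 FPKM that did not overlap those of any other library. In the same library Glrb had 97.3 FPKM (next highest 78.3) and its transcript NM_010298 93.4 FPKM (next highest 76.3). The share of Glra2 in the alpha sum was 56.9% there (next highest 45.6%) and the ratio of Glra2 to Glra1 2.63 (next highest 1.41). The cerebellar marker list was also high there in sum, with 405 FPKM against at most 306 FPKM elsewhere. Pcp2 had the widest gap in FPKM, with 179 FPKM against at most 106 FPKM elsewhere, and Gabra6, Cbln1 and Cbln3 were also highest there. Calb1 had 71.1 FPKM there, below mice 1 and 2, with at least 76.0 FPKM. It was above library 1 of mouse 3, with 50.3 FPKM. The part of these markers in the receptor values was not tested. In library 1 of mouse 3, the ratio of Slc6a9 to Slc6a5 was 9.54 (next highest 7.07). The share of Glra3 was 12.1% in library 1 of mouse 2 (next lowest 19.7%), the library with the fewest bases read, 1.31 gigabases; the part of depth was not tested.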

How the results depend on the processing

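The number of genes that differ between the mice, 3310, was 5493 with TPM and from 126 to 3860 with a library left out, 126 without library 2 of mouse 3 and 1635 to 1835 without a library of mouse 1. Of the 6 genes, 1 differed in the main test, 2 with TPM and with the length trend removed, 3 with limma-trend and a robust prior and with a minimum mean of 5 FPKM (Glra2, Gphn and Slc6a9 in both), 0 with the highest transcript of each gene, and from 0 to 2 with a library left out. Slc6a9 was past the threshold in 2 of 8 such cases (0.30 to 0.33 on the log2 scale, limma, adjusted p 0.0268 to 0.135), those without library 1 or 3 of mouse 2, and not with TPM (0.033) or the highest transcript (0.32, limma, adjusted p 0.0511). Gphn (−0.33) passed with limma-trend, with the higher minimum and with the length trend removed (−0.29), with TPM (−0.63) and in 1 of 8 cases with a library left out (−0.36 to −0.30, the case without library 1 of mouse 2), as did Glra2 (0.47) with limma-trend, with the higher minimum and in 1 of 8 (0.19 to 0.75, the higher value without library 1 of mouse 3). Glra1 passed with TPM (−0.56) and in 0 of 8 (−0.36 to −0.14), Glra3 in 0 of 8 (0.26 to 0.46), and Glrb in 1 of 8 (0.047 to 0.39, 0.39 without library 1 of mouse 3) and turned to −0.079 with TPM. The cause was not tested.

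With the library number as a replicate block, 2995 genes and 1 of the 6 differed, Slc6a9 by 0.35 (limma, adjusted p 0.0471), and no call changed among the 6 genes. Same-numbered libraries shared only a number, with correlations of their deviations from 0.003 to 0.107. With the highest transcript alone, the ratio of summed alpha subunits to Glrb was 0.185 (main 0.198), the share of Glra1 27.1% (34.5%) and that of Glra3 23.3% (20.9%). With a library left out these were 0.196 to 0.200, 32.9% to 36.2% and 20.1% to 21.9%, and the share of Glra2 42.5% to 46.7%. Values at the transcript level and levels near 1 FPKM are limited by a depth in reads that is unknown.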

Other observations

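For each of the 6 genes, the gene with the most similar profile over the 8 libraries was taken, as the smallest root mean square difference of centred log2(FPKM + 1) values among the 13001 genes. It was Cdh20 for Slc6a9 (0.021), Eif3d for Glrb (0.033), Mmgt2 for Glra3 (0.035), Ptpre for Gphn (0.036), Eif3e for Glra2 (0.037) and Lzts1 for Glra1 (0.063). The profiles share the 8 libraries of 3 mice, and the match says nothing of shared function or control.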
